A study of Mus musculus with 4 samples.

Results

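The lipoprotein and fatty acid carrier genes described here are Apoa1, Apoa4, Apob, Apoc3, Mttp, Fabp1, Fabp2, Rbp2, Cd36 and Plb1, chosen by symbol, 10 of the 31053 genes in the count matrices. They were followed in single cells of small-intestinal crypts taken 7 days after bone marrow transplantation. In the allogeneic group, lethally irradiated C57BL/6 mice had received BALB/c marrow and are labelled as having graft-versus-host disease, in which donor immune cells attack host tissue. In the syngeneic control group, C57BL/6 mice, irradiated in the same way, had received C57BL/6 marrow. All mice were female and 8 to 12 weeks old, and each library pooled 3 to 4 of them, giving 2 pools per group. Every title carries the letters "KO", and their meaning is not stated.

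Enterocytes, the absorptive cells of the small intestine, take up fatty acids, rebuild them into triglyceride and ship them as chylomicrons, large lipoprotein particles that enter the lymph. Apob is the structural protein of the particle and Mttp, the microsomal triglyceride transfer protein, loads lipid onto it, while Apoa1, Apoa4 and Apoc3 are exchangeable apolipoproteins of its surface. Fabp1 and Fabp2 bind fatty acids in the cytosol, Rbp2 binds retinol there, Cd36 takes up fatty acids at the membrane, and Plb1 is a phospholipase of the brush border. The genes are known for rising as cells leave the crypt and for differing along the length of the gut.

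Apoa1, Apoc3 and Apoa4 are neighbours on chromosome 9 of GRCm38, at chr9:46228580-46230466, chr9:46232933-46235636 and chr9:46240696-46243459, and Rbp2 lies on the same chromosome at chr9:98486115-98509781. Apob lies at chr12:7977648-8016835, Mttp at chr3:138089854-138144968, Cd36 at chr5:17781690-17888801, Plb1 at chr5:32232708-32366520, Fabp1 at chr6:71199827-71205023 and Fabp2 at chr3:122895072-122899506 (GENCODE M21). HNF4 factors regulate many enterocyte lipid genes, so the 250 bases before each RefSeq start (GRCm38.p6) were searched on both strands for the HNF4 letters CAAAGNNCA. An entry was found for 9 of the 10 genes (10 entries, since Plb1 has 2), and 4 of the 10 entries held the letters, those of Fabp2, Apoa4, Rbp2 and Apob, against 5.49% of 32851 promoters. Of 4 other motifs searched on both strands, the GATA letters AGATAA were in 1 of the 10 entries (9.99% of promoters), the HNF1 letters GTTAAT in 1 (6.43%), the CDX letters TTTATG in 3 (10.8%) and the TATA letters TATAAA in 3 (12.4%). The windows of Rbp2, which passed the test in enterocyte-like cells, and of Fabp2, the fatty acid carrier with the most UMIs there, are shown on the plus strand from 5′ to 3′, at chr9:98490287-98490536 and chr3:122894822-122895071, with the HNF4 letters in capitals. The Rbp2 window precedes its RefSeq start and lies inside a longer GENCODE transcript of the gene.
Rbp2: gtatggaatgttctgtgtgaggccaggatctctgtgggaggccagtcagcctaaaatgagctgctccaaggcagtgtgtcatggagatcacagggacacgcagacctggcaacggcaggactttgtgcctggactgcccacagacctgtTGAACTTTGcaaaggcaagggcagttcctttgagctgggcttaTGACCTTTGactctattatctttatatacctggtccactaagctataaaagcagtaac
Fabp2: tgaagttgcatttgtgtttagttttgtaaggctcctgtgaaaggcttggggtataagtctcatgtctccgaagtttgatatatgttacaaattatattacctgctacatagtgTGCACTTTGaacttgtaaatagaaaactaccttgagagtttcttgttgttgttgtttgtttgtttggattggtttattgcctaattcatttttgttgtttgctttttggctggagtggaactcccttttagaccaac
The Rbp2 window holds a pair of matches, beginning 101 and 58 bases before the start, and the Fabp2 window 1 match, beginning 137 bases before it. A match is a description of letters, not a measured binding site.

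Across the 4 libraries, 12196 of 16565 barcodes were kept as cells: 2053 and 4815 in allogeneic 1 and 2, and 2871 and 2457 in syngeneic 1 and 2. Total counts were 16755124 and 26677842 UMIs (unique molecular identifiers, each marking 1 captured RNA molecule) in the allogeneic libraries, and 18262459 and 14961466 in the syngeneic libraries. Barcodes above 20% mitochondrial counts were 27.2% of allogeneic 1, against 11.2% to 14.9% of the other libraries, and any pair of libraries shared 2 to 7 barcodes. Clusters were named from marker genes that include no carrier gene. Enterocyte-like cells numbered 369 and 1877 in the allogeneic libraries and 711 and 730 in the syngeneic libraries; their enterocyte markers summed to 20844 and 14990 CPM (UMI counts scaled to a common total per class and library) in the allogeneic libraries against 10641 and 10843 CPM in the syngeneic libraries, and T or NK cell markers to 2.00 and 3.29 CPM against 7.86 and 6.99 CPM. The groups occupied different clusters: allogeneic cells lay in clusters 12 (47 and 880 cells), 19 (39 and 989) and 20 (276 and 5), and syngeneic cells in clusters 0 (468 and 419) and 1 (243 and 308). The allogeneic pair also differed more within itself, with an SD of the log2 difference over genes of 0.733, against 0.348 for the syngeneic pair.

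Enterocyte-like cells held nearly all of the carrier RNA. They gave 95.8% and 93.6% of the carrier gene UMIs of all epithelial cells in the allogeneic libraries, where they were 20.4% and 40.7% of epithelial cells, and 94.6% and 95.7% in the syngeneic libraries, where they were 24.9% and 30.1%. Per enterocyte-like cell this came to a mean of 311 and 337 UMIs in the allogeneic libraries and 285 and 288 in the syngeneic libraries, or 7.63% and 8.68% of all their UMIs against 6.13% and 7.01%. Each of the 10 genes had its highest level in enterocyte-like cells in every library, with 2 exceptions: Fabp1 in allogeneic 2, at 888 CPM in tuft-like and 262 CPM in enterocyte-like cells, and Cd36 in syngeneic 2, where 1 UMI put enteroendocrine-like cells at 5.33 CPM and enterocyte-like cells stood at 4.99 CPM.

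In enterocyte-like cells, Rbp2 rose in the allogeneic libraries and was the 1 carrier gene of 10 to pass the test. Fabp2, Apoa4, Apob and Fabp1 overlapped between the groups, Apoa1 and Mttp were higher in both allogeneic libraries without passing the test, and Plb1 had low values that also missed it. Over all 8569 genes tested in these cells, 5.82% were called, 3.2% higher and 2.63% lower. Each test below is edgeR's quasi-likelihood test of allogeneic over syngeneic sums of UMIs, n = 2 pools per group, with p-values adjusted by Benjamini-Hochberg over every gene tested in that class and called under 0.05. The labels describe the pools as separate biological samples, and an exact permutation test of 2 against 2 cannot give a p below 0.33.

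Rbp2, the cellular retinol-binding protein of the gut, stood at 5458 and 6978 CPM in the allogeneic libraries, against 1977 and 1800.4 CPM in the syngeneic libraries. The groups did not overlap, and means were 6218 ± 1075 and 1889 ± 125 CPM (SD, n = 2 each). On the TMM scale Rbp2 was higher by a log2 fold change of 2.04, with an SE of 0.41 and an edgeR adjusted p of 0.0279. After thinning each cell to 2000 UMIs, a Rbp2 UMI was found in 91.7% and 95.2% of allogeneic enterocyte-like cells, against 61.7% and 62.1% of syngeneic ones; the share in T or NK-like cells, which should lack the gene, was 11.6% and 18.4% in the allogeneic libraries, with 3 and 8 such cells deep enough in the syngeneic ones. Without thinning the shares were 92.7% and 97.0% in allogeneic and 71.9% and 71.6% in syngeneic enterocyte-like cells. The call was kept in 9 of 18 alternative settings, and the log2 fold change stayed positive in all 18, from 1.13 to 2.35, and it was lost among others without syngeneic 1 (adjusted p = 0.506, edgeR) and without syngeneic 2 (adjusted p = 0.447, edgeR).

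Plb1, the brush border phospholipase, stood at 131 and 11.2 CPM in the allogeneic libraries, from 197 and 82 UMIs, against 386 and 447 CPM in the syngeneic libraries, from 1278 and 1341 UMIs. Both allogeneic values lay below both syngeneic ones, but the allogeneic pair differed from each other more than 10-fold. The log2 fold change was -2.46 (SE 0.80, adjusted p = 0.112 with edgeR), so the gene was not called. The log2 fold change stayed negative in all 18 alternative settings, from -4.74 to -1.53. That range includes runs with 1 pool left in a group. Cells with a Plb1 UMI after thinning made up 21.7% and 2.06% of allogeneic enterocyte-like cells, and 39.2% and 41.5% of syngeneic ones (unthinned 29.0% and 3.84% against 52.0% and 53.0%).

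**Figure D1:**
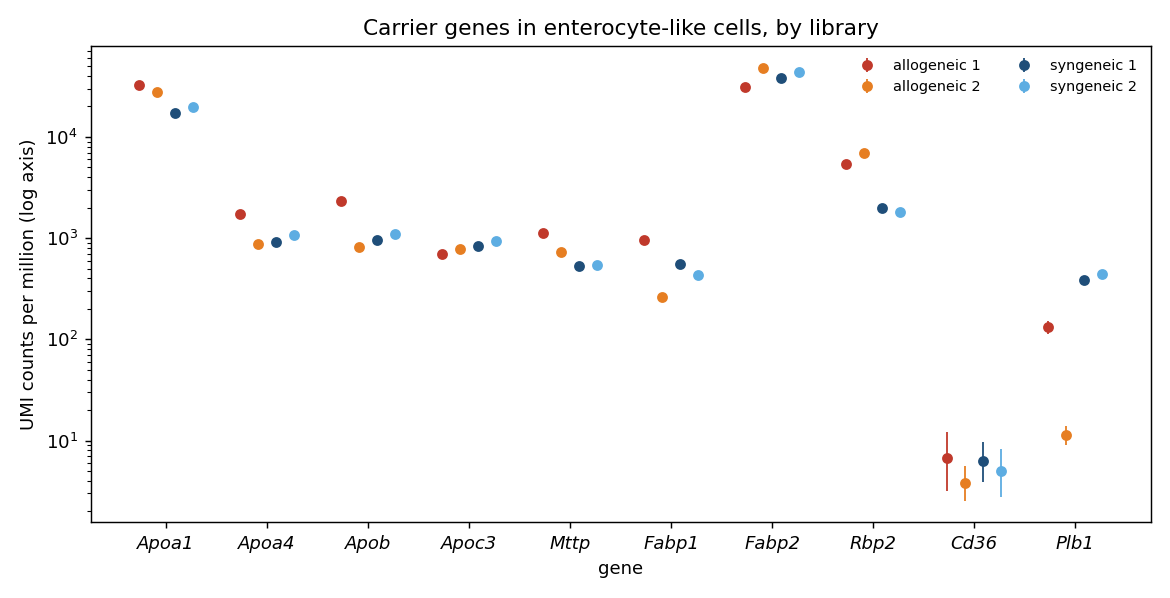
Level of each carrier gene in enterocyte-like cells on a log axis in CPM, with 1 point per library (allogeneic 1 and 2 in red and orange, syngeneic 1 and 2 in dark and light blue) and exact 95% Poisson intervals, which cover counting error only. Rbp2 and Plb1 separate the groups furthest, at 5458 and 6978 against 1977 and 1800.4 CPM for Rbp2 and at 131 and 11.2 against 386 and 447 CPM for Plb1.

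Of the genes of particle assembly, Mttp had 1112 and 735 CPM in the allogeneic libraries and 531 and 546 CPM in the syngeneic libraries. Apob had 2348 and 824 CPM in the allogeneic libraries, which lie on either side of the 954 and 1091 CPM in the syngeneic libraries. Neither was called, at log2 fold changes of 1.04 (SE 0.33, adjusted p = 0.10, edgeR) and 0.85 (SE 0.44, adjusted p = 0.292, edgeR).

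Of the exchangeable apolipoproteins, Apoa1, the main protein of high-density lipoprotein, had 32647 and 28074 CPM in the allogeneic libraries and 17331 and 19653 CPM in the syngeneic libraries, with no overlap, and the log2 fold change was 1.0 (SE 0.40, adjusted p = 0.180, edgeR). Apoa4 had 1749 and 879.9 CPM in the allogeneic libraries and 922 and 1077 CPM in the syngeneic libraries. Apoc3, an inhibitor of lipoprotein lipase, had 699 and 779 CPM in the allogeneic libraries and 833 and 945 CPM in the syngeneic libraries. The Apoa4 groups overlapped and the Apoc3 groups did not; log2 fold changes were 0.64 and 0.04, and neither was called. With the brush border score held, in the ranges described further on, the Apoa1 value was 0.93, -0.21 and -0.08 from the lowest to the highest range. The Apoc3 value was -0.27 without TMM, a scaling that set the median of all genes at -0.01 rather than -0.32.

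Of the fatty acid carriers, Fabp2 had 31155 and 48236 CPM in the allogeneic libraries and 37843 and 44113 CPM in the syngeneic libraries, and Fabp1 had 947 and 262 CPM in the allogeneic libraries and 555 and 429 CPM in the syngeneic libraries. For both genes the groups overlapped, and log2 fold changes were 0.28 (SE 0.47; -0.05 without TMM) and 0.50 (SE 0.48), not called. Cd36 was barely detected, with 10 and 28 UMIs in allogeneic libraries and 21 and 15 UMIs in syngeneic libraries, and its log2 fold change was 0.06 with TMM and -0.25 without. In plain CPM, 3 of the 10 genes (Apoa1, Mttp, Rbp2) were higher without overlap, where 13.1% of all genes were, and 2 (Apoc3, Plb1) were lower, where 42.7% were. The median log2 fold change of the 10 genes was 0.57, beside -0.01 over all genes; it was negative in the middle and highest ranges of the brush border score described next.

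The libraries differed in how their enterocyte-like cells spread over a brush border score. It is the share of a cell's UMIs in 13 enterocyte markers that include no carrier gene. A range of the score is not a cell type, and whether it follows maturity alike in both groups was not tested. The score was divided into 3 ranges at 1.24% and 1.84%, chosen so that each library counted equally. The lowest, middle and highest ranges held 16, 78 and 275 cells in allogeneic 1 and 420, 962 and 495 in allogeneic 2, against 396, 193 and 122 in syngeneic 1 and 372, 247 and 111 in syngeneic 2. With the score held in a range, Plb1 passed the test in all 3 ranges, lower in the allogeneic libraries, and Rbp2 passed in the lowest range and not in the other 2. Whether the effects differ between ranges was not tested.

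In the highest range, Plb1 had 157 and 21.9 CPM in the allogeneic libraries and 1105 and 1168 CPM in the syngeneic libraries, and edgeR put the log2 fold change at -3.69 (SE 0.73, adjusted p = 0.0345), where 3.92% of genes were called and 1.6% called lower. In the middle range it had 89.2 and 11.9 CPM in the allogeneic libraries and 712 and 830.2 CPM in the syngeneic libraries, and edgeR put the log2 fold change at -4.29 (SE 0.65, adjusted p = 0.00164), where 4.77% of genes were called and 2.56% called lower. In the lowest range 0 and 6 UMIs were found in the allogeneic libraries and 311 and 301 in the syngeneic libraries, where 14% of genes were called, 6.87% higher and 7.18% lower. The size rests on the allogeneic libraries: without allogeneic 1 the log2 fold change was -5.49 in the highest and -5.75 in the middle range, and without allogeneic 2 it was -2.89 and -3.22. In the lowest range it was -5.45, and -10.71 without allogeneic 2, where the remaining allogeneic library has 0 Plb1 UMIs in 16 cells and the fitted value is no bound. The highest-range call was lost when the score left out Sis and Alpi (adjusted p = 0.203, edgeR), and no alternative turned the direction in any range.

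Rbp2 in the middle range had 3844 and 7784 CPM in the allogeneic libraries and 3705 and 3664 CPM in the syngeneic libraries, and in the highest range 6291 and 9212 CPM in the allogeneic libraries and 4657 and 3866 CPM in the syngeneic libraries. The groups did not overlap in either range, and the share of all genes without overlap was not counted there. Log2 fold changes of Rbp2 were 0.79 (SE 0.48, adjusted p = 0.416, edgeR) and 0.98 (SE 0.40, adjusted p = 0.207, edgeR), not called. In the lowest range it had 2204 and 4045 CPM in the allogeneic libraries and 889 and 651 CPM in the syngeneic libraries, and there Rbp2 and Apoa4 were called higher (log2 fold changes 2.23 and 1.28, adjusted p = 0.000398 and 0.0308 by edgeR). Both calls were lost without syngeneic 1 (adjusted p = 0.643 and 0.999, edgeR) and without syngeneic 2 (0.722 and 0.697), the Apoa4 call also without allogeneic 2 (0.389), and allogeneic 1 had 16 cells there. Fabp2 in the highest range had 37426 and 73101 CPM in the allogeneic libraries and 108584 and 98093 CPM in the syngeneic libraries (log2 fold change -0.77, not called).

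The exchangeable apolipoproteins also took other values with the score held. In the highest range Apoa1 had 37641 and 41003 CPM in the allogeneic libraries and 45211 and 43493 CPM in the syngeneic libraries, lower without overlap, where the class as a whole was higher. Apoa4 in that range had 1882 and 1572 CPM in the allogeneic libraries and 2772 and 2168 CPM in the syngeneic libraries. Apoc3 had 772 and 1331 CPM in the allogeneic libraries and 2849 and 2495 CPM in the syngeneic libraries. All 3 were lower there without overlap, and none was called, at log2 fold changes of -0.08, -0.44 and -1.22. The share of all genes lower without overlap was not counted in this range. In the whole enterocyte-like class it was 42.7% in plain CPM. In the middle range the values were -0.21 for Apoa1, -0.82 for Apoa4 and -1.20 for Apoc3, again not called. The median over the 9 carrier genes tested was 0.46 in the lowest range, -0.82 in the middle and -0.30 in the highest, beside -0.08, -0.01 and 0.01 over all genes.

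**Figure D2:**
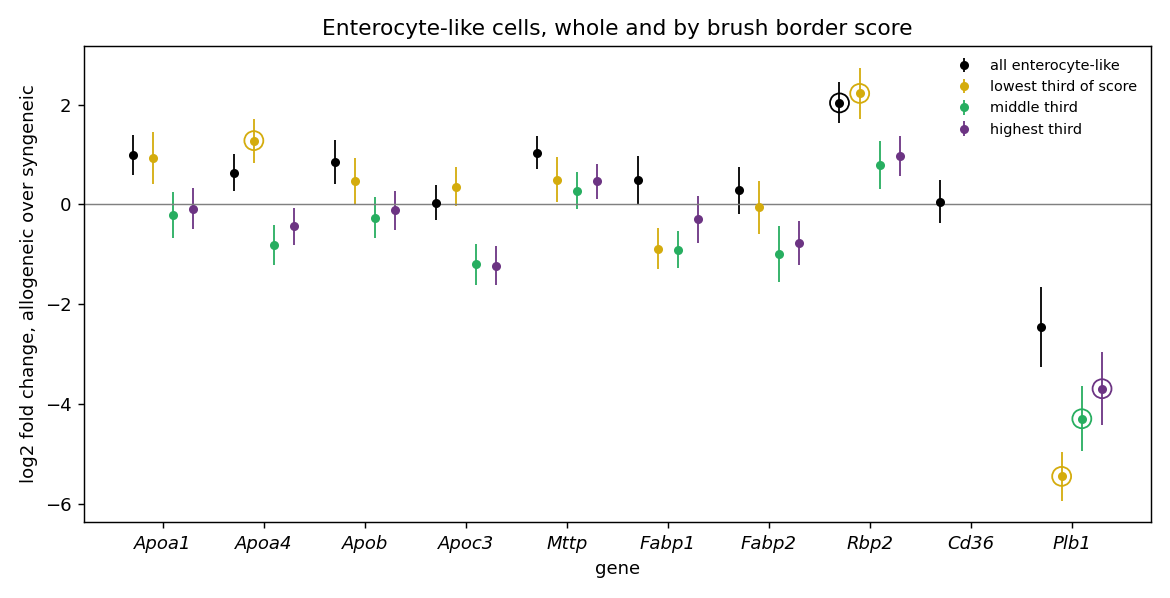
Log2 fold change (allogeneic over syngeneic, TMM-scaled, ± SE) of each carrier gene in all enterocyte-like cells (black) and in the lowest, middle and highest range of the brush border score (yellow, green, purple); rings mark adjusted p under 0.05, and Cd36 was not tested in the ranges. Plb1 is ringed in every range (-5.45, -4.29 and -3.69), while Rbp2 is ringed in the whole class and the lowest range.

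The carrier genes also varied between clusters that differ in Fabp6, the ileal bile acid binding protein, which marks the end of the small intestine. Over all enterocyte-like cells Fabp6 had 8627 and 20404 CPM in the allogeneic libraries and 43243 and 45624 CPM in the syngeneic libraries, and was not called (adjusted p = 0.215, edgeR). In the syngeneic libraries, cluster 0 combined high Fabp6 (51819 and 57086 CPM) with low Apoa4 (29.9 and 53.5 CPM) and low Fabp2 (14131 and 14118 CPM). Cluster 1 combined lower Fabp6 (17647 and 21850 CPM) with high Apoa4 (3583 and 3194 CPM) and high Fabp2 (108609 and 106050 CPM). In allogeneic 2, cluster 12 had 449 CPM of Apoa4 and 26898 CPM of Fabp2 at 26103 CPM of Fabp6, and cluster 19 had 1268 and 67249 CPM at 15194 CPM. Allogeneic 1 lay at lower Fabp6, with 8626 CPM in its main cluster 20, beside 1954 CPM of Apoa4 and 34274 CPM of Fabp2. The median mitochondrial share of kept cells was 14.7% in that cluster. It was 7.75% and 8.07% in allogeneic 2 clusters 12 and 19, and 9.68% to 10.4% in syngeneic clusters 0 and 1. At most 10% mitochondrial counts were found in 40 of the 369 enterocyte-like cells of allogeneic 1. The part of this share in the carrier gene levels was not tested.

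The 6-gene ileal list summed to 12426 and 25897 CPM in the allogeneic libraries and 45997 and 48679 CPM in the syngeneic libraries, and the proximal list of 11 genes to 819 and 357 CPM against 734 and 839 CPM. The median log2 fold change of the 5 ileal genes tested was 0.43, beside -0.01 over all genes. Of those, 1 was called higher and 0 lower, where 3.2% and 2.63% of all genes were. Most of the ileal sum was Fabp6, so the ileal share used next largely follows that gene. When cells were split at the pooled median ileal share, Rbp2 averaged 7539 CPM in allogeneic and 4115 CPM in syngeneic cells of low share, and 3669 CPM in allogeneic and 904.7 CPM in syngeneic cells of high share, and was called in neither (adjusted p = 0.165 and 0.0583, edgeR). This split was chosen after seeing the data. Cluster 18, whose enterocyte score fell under the naming limit (70 and 456 allogeneic cells, 9 and 16 syngeneic cells), is not in these values. Gut region and transplant group cannot be told apart here, because the clusters divided by group.

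**Figure D3:**
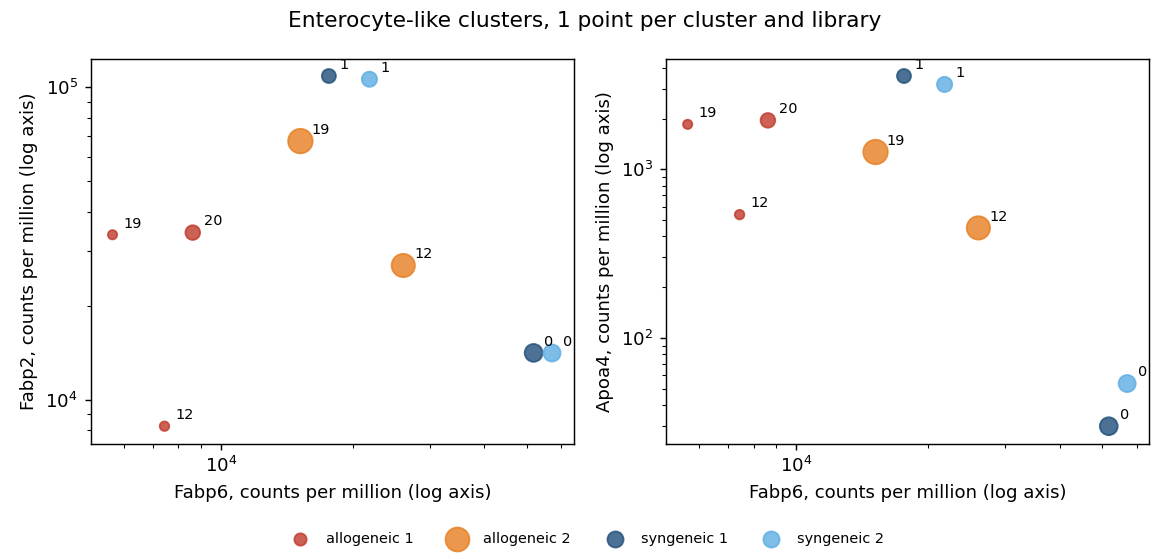
Fabp2 (left) and Apoa4 (right) against Fabp6, in CPM on log axes, for each enterocyte-like cluster and library; numbers are clusters, colours libraries, and larger points hold more cells. Syngeneic cluster 0 sits at high Fabp6 and low Apoa4 (29.9 and 53.5 CPM), and syngeneic cluster 1 highest in both genes (3583 and 3194 CPM), while the allogeneic clusters lie apart from both; points of under 20 cells are left out.

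Other genes of the same pathway were counted from lists of the lipid absorption machinery. For comparison, 3.2% of all 8569 genes tested in enterocyte-like cells were called higher and 2.63% lower. In enterocyte-like cells 2 of 13 tested apolipoprotein and chylomicron assembly genes were higher, Apobec1, the Apob RNA editing enzyme, at 63.9 and 32.1 CPM in the allogeneic libraries against 17.8 and 18.0 CPM in the syngeneic libraries, and Creb3l3, at 545 and 348 CPM against 217 and 200.5 CPM. Likewise 2 of 11 triglyceride and cholesterol ester synthesis genes were higher, Acsl5, which activates fatty acids, at 1387 and 1364 CPM against 542 and 576 CPM, and Soat2, which esterifies cholesterol, at 158 and 124 CPM against 86.8 and 76.6 CPM. Of 11 genes of fatty acid and sterol uptake and export 0 were called.

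Of 8 intracellular lipases 1 was lower, Ces1f, at 12.0 and 2.61 CPM in the allogeneic libraries against 61.7 and 70.3 CPM in the syngeneic libraries (log2 fold change -3.30, adjusted p = 0.0139, edgeR). Of 16 transcription regulators of these genes, Gata6 was higher (log2 fold change 1.14, adjusted p = 0.0427, edgeR) and Mlxipl, the carbohydrate-responsive regulator, lower (log2 fold change -1.78, adjusted p = 0.0335, edgeR). Over all genes tested in these cells, 2.63% were called lower and 3.2% higher. Apobec1, Creb3l3, Acsl5, Soat2, Gata6 and Mlxipl were named after their values were seen. Median log2 fold changes were 0.76 for chylomicron assembly, 0.78 for triglyceride synthesis, 0.05 for uptake and export, 0.18 for lipases and -0.03 for regulators, beside -0.01 over all genes.

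Of gut region lists, 2 of 10 tested proximal genes were higher and 1 was lower, the iron exporter Slc40a1, at 2.66 and 1.10 CPM in the allogeneic libraries against 20.6 and 27.6 CPM in the syngeneic libraries. The 2 higher genes were not among the 20 largest called changes, and the median log2 fold change of the proximal list was -0.32. Among all genes tested in enterocyte-like cells, 3.2% were called higher and 2.63% lower. Of 5 tested ileal genes 1 was higher, the bile acid transporter Slc10a2, at 929.8 and 1026 CPM against 297 and 389.9 CPM, and of 2 tested colon genes 0 were called. The interferon gamma response moved in the same cells: 23 of 53 tested genes of that list rose and 0 fell, with a median log2 fold change of 1.36, among them Gbp4 at 8.65 and 28.4 CPM in the allogeneic libraries against 0.605 and 0.666 CPM in the syngeneic libraries. The others among the 20 largest called changes were Cxcl9, H2-Q6, Ly6a, Gbp8, Usp18, H2-Q7, Iigp1, Cxcl10, Ubd, Bst2, Oasl2, Gbp2, Ly6e, Zbp1, Wars and B2m, with log2 fold changes from 4.24 for Cxcl9 to 1.85 for B2m. Whether the interferon list is related to the carrier genes was not tested.

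In all epithelial cells together, 0 of 10 carrier genes were called by edgeR, where 0.166% of 12034 genes were; 2 had an unadjusted p under 0.05, and DESeq2 called 2. Those 2 were Rbp2, at 629 and 2290.1 CPM in the allogeneic libraries against 413 and 418 CPM in the syngeneic libraries, and Plb1, at 15.2 and 3.49 CPM against 80.2 and 103 CPM. These sums mix the level per cell with the share of enterocyte-like cells.

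Summed over the 10 genes, every other named epithelial class stood below 10% of the enterocyte-like level in every library, with single genes above that, such as Fabp1 in tuft-like cells. Goblet-like cells, which make mucus, were among these classes. Apoa1 in goblet-like cells had 588 and 1766 CPM in the allogeneic libraries and 1073 and 914 CPM in the syngeneic libraries, and Fabp2 had 477 and 3044 CPM in the allogeneic libraries and 3502 and 3610 CPM in the syngeneic libraries, beside 1740.0 and 2944 CPM of Apoa1 in allogeneic and 9604 and 674 CPM in syngeneic T or NK-like cells. Plb1 had 3.73 and 0.519 CPM in the allogeneic libraries, from 5 and 2 UMIs, and 33.8 and 24.0 CPM in the syngeneic libraries, from 34 and 20 UMIs. Plb1 fell by 4.32 on the log2 scale in goblet-like cells (SE 0.58, adjusted p = 5.24e-05, edgeR; -5.59 without allogeneic 1 and -3.16 without allogeneic 2), 1 of 9 carrier genes tested where 12.8% of genes were called and 5.43% lower.

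Enterocyte markers summed to 828 and 1615 CPM in allogeneic and 1539 and 1306 CPM in syngeneic goblet-like cells, and goblet markers to 38462 and 36429 CPM in allogeneic and 122518 and 144901 CPM in syngeneic ones. Goblet-like cells came mostly from cluster 9 in the allogeneic libraries (150 and 555 cells) and from cluster 16 in the syngeneic libraries (166 and 167 cells). In T or NK-like cells Plb1 had 14 and 0 UMIs (26.9 and 0 CPM) in the allogeneic libraries and 7 and 0 UMIs (252 and 0 CPM) in the syngeneic libraries, so that its level in syngeneic 1 was above that in goblet-like cells. Plb1 in goblet-like cells was 2.85% and 4.61% of its enterocyte-like level in the allogeneic libraries and 8.75% and 5.37% in the syngeneic libraries, beside 1.60% and 6.41% in the allogeneic and 8.09% and 6.93% in the syngeneic libraries for all carrier genes together. No expression of Plb1 in goblet-like cells was read from these values. The part of these measures in the Plb1 difference was not tested.

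Fabp1 rose in tuft-like cells, the chemosensory cells of the epithelium, with 314 and 888 CPM in the allogeneic libraries against 22.9 and 9.48 CPM in the syngeneic libraries. In edgeR this gave 5.13 on the log2 scale (SE 0.61, adjusted p = 0.00335), 1 of 7 carrier genes tested where 0.306% of genes were called and 0.278% called higher; the value was 5.70 without allogeneic 1 and 4.15 without allogeneic 2. The UMIs were 77 and 178 in the allogeneic libraries, from 4 of 33 and 10 of 39 cells, and 8 and 2 in the syngeneic libraries, from 7 of 59 and 1 of 37 cells. Cells with 5 or more Fabp1 UMIs numbered 2 and 3 in the allogeneic libraries and 0 and 0 in the syngeneic libraries, with a highest cell of 39 and 88 against 2 and 2 UMIs, so that few cells carry the sum.

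Tuft markers summed to 2817 and 2010.1 CPM in allogeneic and 3101 and 2471 CPM in syngeneic tuft-like cells, and enterocyte markers to 437 and 1287 CPM in allogeneic and 272 and 171 CPM in syngeneic ones. Tuft-like cells without an enterocyte marker UMI numbered 17 and 18 in the allogeneic libraries and 35 and 23 in the syngeneic libraries. In them Fabp1 had 40 and 81 UMIs in the allogeneic libraries and 4 and 0 UMIs in the syngeneic libraries. The allogeneic UMIs came from 2 and 4 cells, and 1 cell in each library held 39 and 69 of them. The tuft-like effect minus the enterocyte-like effect was 4.81 (SE 2.26, adjusted p = 0.610, edgeR, where 2.59% of genes were called), so the effect was not shown to differ between those classes.

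In stem-like, cycling progenitor-like and Paneth-like cells 5 carrier genes each could be tested and in enteroendocrine-like cells 4, and 0 were called, where 0.727%, 2.84%, 0.993% and 0.887% of genes were; 1, 2, 2 and 1 had an unadjusted p under 0.05. Apoa1 had 43.5 and 93.8 CPM in allogeneic and 18.7 and 63.2 CPM in syngeneic stem-like cells, and 51.6 and 109 CPM in allogeneic and 55.0 and 42.6 CPM in syngeneic Paneth-like cells. The enterocyte effect minus the effect in other epithelial cells was called for 0 of 10 genes, where 7.59% of genes were called, and 0 had an unadjusted p under 0.05; DESeq2 called 0. For goblet-like minus enterocyte-like cells 20.4% of genes were called, Plb1 among them (-1.48, SE 0.49).

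**Figure D4:**
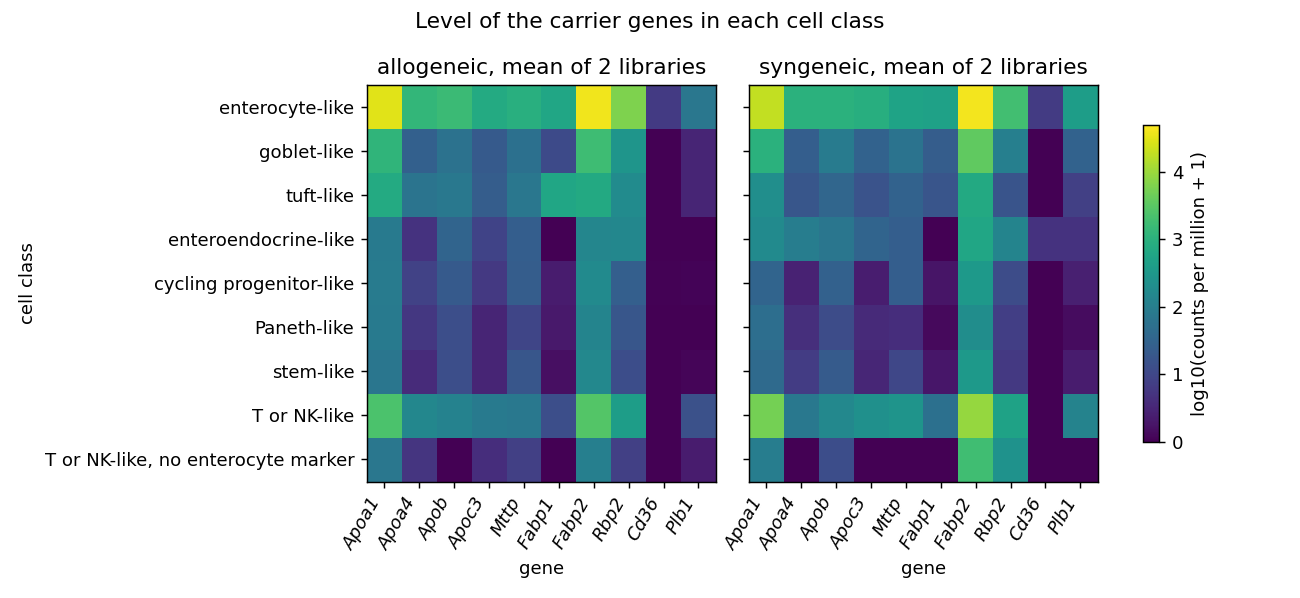
Mean level of each carrier gene over 2 libraries, as log10(CPM + 1), by cell class, in allogeneic (left) and syngeneic (right) libraries. The enterocyte-like row is brightest for every gene except allogeneic Fabp1, where its mean of 604 CPM is nearly matched by 601 CPM in tuft-like cells. Tuft-like Fabp1 is bright on the left alone (314 and 888 CPM against 22.9 and 9.48 CPM). The T or NK-like row dims when cells with an enterocyte marker are left out.

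T or NK cells are no known source of intestinal apolipoproteins, so their carrier gene UMIs gauge free or carried-over RNA. There were 231 and 202 such cells in the allogeneic libraries and 12 and 32 in the syngeneic libraries. Their summed carrier level was 3.95% and 10.2% of the enterocyte-like level in the allogeneic libraries, and 46.8% and 3.59% in the syngeneic libraries. Apoa1 reached 1740.0 and 2944 CPM in allogeneic T or NK-like cells and 9604 and 674 CPM in syngeneic ones, above its level in stem-like and Paneth-like cells of the same libraries.

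This RNA was not spread evenly over the cells. No carrier gene UMI was found in 71% and 56.4% of the allogeneic T or NK-like cells and in 50% and 56.3% of the syngeneic ones. Cells with 10 or more carrier UMIs were 15 of 231 and 18 of 202 in the allogeneic libraries, holding 95.5% and 96.7% of the UMIs, and 4 of 12 and 1 of 32 in the syngeneic libraries, holding 99.1% and 86.6%. The richest single cells had 282 and 1030 UMIs in the allogeneic libraries and 323 and 149 in the syngeneic libraries.

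Most of these cells also carried enterocyte markers. T or NK-like cells with at least 1 enterocyte marker UMI (43 and 47 allogeneic, 4 and 5 syngeneic) held 96.9% and 98.0% of the carrier UMIs in the allogeneic libraries and 95.1% and 91.9% in the syngeneic libraries. Without them the carrier level was 0.162% and 0.317% of the enterocyte-like level in the allogeneic libraries and 6.43% and 0.483% in the syngeneic libraries, where syngeneic 1 had 8 cells left and 1 of them, with no enterocyte marker UMI, held 36 of the 39 carrier UMIs. Apoa1 was then at 40.2 and 101 CPM in allogeneic T or NK-like cells and 101 and 96.7 CPM in syngeneic ones. Leaving out cells by their enterocyte marker UMIs lowers the carrier level in part by selection, and stem-like cells were not filtered in this way. Apoa1 in allogeneic stem-like cells, at 43.5 and 93.8 CPM, was close to the filtered T or NK-like level, and no expression was read from it. Fabp2 was 42.2% and 159% of Apoa1 in allogeneic T or NK-like cells, against 95.4% and 172% in enterocyte-like cells of the same libraries, and 171% and 250% in syngeneic T or NK-like cells against 218% and 224%; nearly all of these T or NK-like UMIs come from the few cells with enterocyte markers. Whether such barcodes hold 2 cells or 1 cell with carried-over RNA was not tested.

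**Figure D5:**
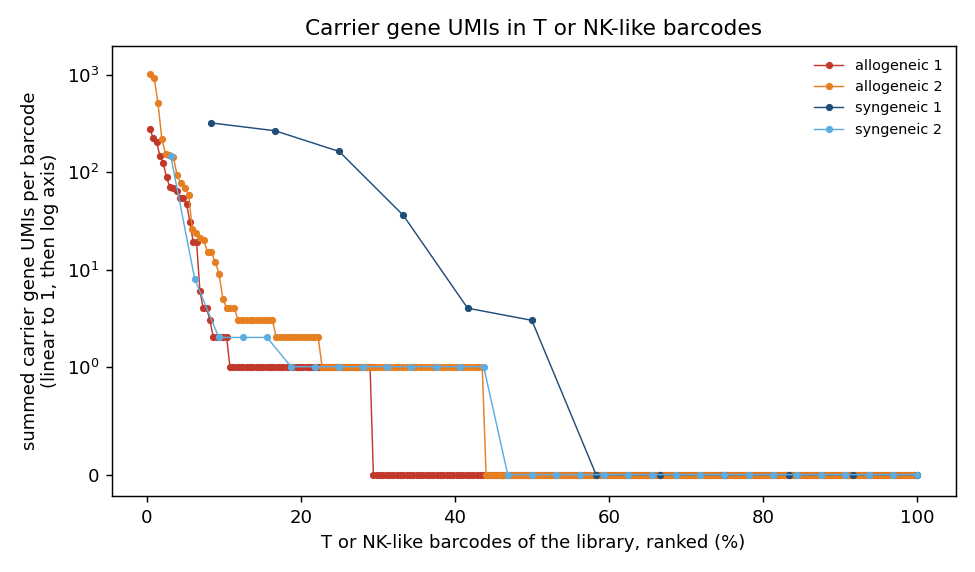
Summed UMIs of the 10 carrier genes in each T or NK-like barcode, ranked within its library (percent of barcodes on the x axis; the y axis is linear to 1 and logarithmic above). Each curve drops steeply, with 10 or more UMIs in 15 of 231 and 18 of 202 allogeneic barcodes and in 4 of 12 and 1 of 32 syngeneic barcodes.

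Over 31 class by library sums, which share libraries and depth, genes whose level closely resembled the carrier genes' mean included Clca4b (Pearson r 0.969), Slc34a2 (0.957), Slc9a3r1 (0.956), Cndp2 (0.950), 2010106E10Rik (0.950), Crip1 (0.942) and Slc27a4 (0.934). Slc27a4 is the fatty acid transport protein of the uptake list. The carrier genes themselves ranged from 0.801 for Plb1 to 0.970 for Apob. Each is part of the mean it was set against, so these values are not comparable with those of the other genes. No coefficient was computed for Cd36, whose mean was under 20 CPM.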

How the data were processed

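Analysis started from raw UMI counts for each gene in each barcode, as deposited by the authors; per the submitters' processing notes they come from Cell Ranger 2.1.1 on mm10, while the matrix headers give software version 3.1.0. The annotation used for counting is not given in the sources used here. Text tables named for the same libraries were left out. Barcodes with fewer than 500 genes or 1000 UMIs, or above 20% mitochondrial counts, were removed, and Scrublet removed 89 doublets (0.72%). Leiden clustering at resolution 1 (scanpy, 2000 variable genes, 30 components, 15 neighbours) gave 22 clusters, without the carrier genes, lipid lists and interferon list among the variable genes; a cluster took the class whose markers scored highest (mean z of at least 0.5 with 3 detected markers), and others stayed unnamed.

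Each class was summed to 1 UMI total per gene in each library, and the sums were tested with edgeR 4.0.16 (filterByExpr, TMM, robust quasi-likelihood) in R 4.3.3, in classes with at least 20 cells per library; the 3 score ranges of enterocyte-like cells were fitted too, although the lowest held 16 cells in allogeneic 1. The SE is the log2 fold change divided by the root of F. DESeq2 1.42.0 and limma 3.58.1 were alternatives, beside other filters, clusterings and leaving out each library. Intervals are exact (Poisson, or Clopper-Pearson at 95%) and cover counting error only. The scripts were tested on simulated data. Replicate numbers follow the order of the records and pair no libraries. The genes and lists were chosen with earlier results of these data known. The text names all 10 carrier genes and, of the other lists, at most 20 called genes by size of change, with exceptions stated. Of the genes most like the carrier genes, 1 is not reported here.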

Additional observations from a re-analysis of the deposited data

Results flagged for a closer look

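The allogeneic effect on Plb1 UMIs differed between goblet-like and enterocyte-like barcodes: the effect in goblet-like cells minus that in enterocyte-like cells was -1.48 on the log2 scale (SE 0.49, adjusted p = 0.0339, edgeR interaction with library as a block), where 20.4% of all genes passed the same test. Plb1 had 3.73 and 0.519 CPM in allogeneic and 33.8 and 24.0 CPM in syngeneic goblet-like cells, beside 131 and 11.2 CPM in allogeneic and 386 and 447 CPM in syngeneic enterocyte-like cells. The goblet-like value rests on 5 and 2 UMIs in the allogeneic libraries. Plb1 in goblet-like cells was 2.85% and 4.61% of its enterocyte-like level in the allogeneic and 8.75% and 5.37% in the syngeneic libraries. All carrier genes together stood at 1.60% and 6.41% in the allogeneic and 8.09% and 6.93% in the syngeneic libraries. In T or NK-like cells Plb1 was at 20.5% and 0% of its enterocyte-like level in the allogeneic and 65.2% and 0% in the syngeneic libraries. No alternative setting was run for this difference of effects, and the part of RNA from enterocytes in it was not tested.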

How the results depend on the processing

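With 2 pools per group and a wider spread in the allogeneic pair, counts of called genes depend on which library is present. No paired analysis was possible because the replicate numbers follow the order of the records and pair no libraries. Of the 10 carrier genes, 1 was called in enterocyte-like cells; DESeq2 called 3, and 0 were called with classes given per cell, with free RNA subtracted, with limma on mean per-cell CPM, with the unnamed enterocyte-related cluster added, or in cells of low ileal share (the last 2 chosen after seeing the data). In all epithelial cells 0 were called, against 2 with DESeq2, 2 with no low-count filter and 1 at a limit of 10% mitochondrial counts. The enterocyte effect minus that in other cells called 0, and 2 with no filter. In the highest score range 1 was called, and 0 when the score left out Sis and Alpi.

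Leaving out 1 library at a time gave 1 to 7 calls in enterocyte-like cells, 1 to 8 in all epithelial cells, 0 to 7 for the difference of effects, 1 to 3 in tuft-like, 1 to 9 in goblet-like cells, and 1 to 8, 1 to 6 and 1 to 5 in the lowest, middle and highest score ranges; Fabp1 in tuft-like and Plb1 in goblet-like cells stayed called in every run.

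Each run without 1 library left 1 pool in a group. The counts of called carrier genes from those runs stand without the share of all genes called in the same run. They therefore do not set the carrier genes apart from other genes. The 13 uncalled results listed here turned sign when 1 allogeneic library was left out, and how many genes overall did so was not counted. They are listed because a setting with the opposite sign passed the threshold. Other carrier gene results turned sign without passing, as Apoc3 in enterocyte-like cells did in 11 of 18 settings. Each of the 13 is given without allogeneic 1 and then without allogeneic 2. In enterocyte-like cells Fabp1 was at -0.44 and 1.08; in all epithelial cells Apoc3 was at 0.58 and -1.46 and Fabp2 at 0.95 and -1.54. The differences of effects were -1.68 and 0.85 for Apoa1, -1.44 and 1.62 for Apoa4, -0.61 and 1.29 for Apob, -1.69 and 1.33 for Apoc3, -0.79 and 0.60 for Mttp, and -1.51 and 1.22 for Rbp2. In goblet-like cells Apoa1 was at 0.89 and -0.99, Apoa4 at 0.94 and -1.82 and Rbp2 at 2.28 and -0.93, and in the lowest score range Fabp2 was at 0.84 and -2.82. In these runs the lone allogeneic library is assumed to vary like the syngeneic pair.

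Over all genes, 499 were called in enterocyte-like cells, 54.9% of them higher; without TMM 186 were called, 36% of them higher, and the other settings gave 133 to 3805. In all epithelial cells 20 were called, and 0 to 5470 under the alternatives. The cause of these changes was not tested. Runs without 1 library in tuft-like and goblet-like cells and in the score ranges were chosen after seeing the data.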
